A study of Mus musculus with 9 samples.

Results

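The 9 genes described here encode matricellular and elastic fibre proteins: Tnc, Thbs1, Postn, Fn1, Vtn, Prg4, Eln, Fbn1 and Emilin1. They were taken by symbol from a deposited table of 18094 genes, where all 9 had a row, and all 9 passed the filter on low counts that left 15277 genes for testing. The table holds RNA sequencing counts of endothelial cells sorted with microbeads from fresh mouse hearts. BPH/2J, an inbred line with high blood pressure, was taken at the ages of 4 and 22 weeks. BPN/3J, the normotensive line compared with it, was taken at 22 weeks. Each of the 3 groups has 3 libraries. The labels name no treatment and no engineered allele. Only 1 line stands for high and 1 for normal blood pressure, and BPN/3J has no 4-week group here. Blood pressure and strain background cannot be told apart in these groups, and an age difference could be measured in BPH/2J alone.

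Matricellular proteins sit in the extracellular matrix without bearing load, and change how cells attach to it. Tenascin C and periostin are abundant in developing and injured tissue and scarce in most resting adult tissue, and thrombospondin 1 restrains vessel growth through the receptors CD36 and CD47 and releases TGF-beta from its latent form. Fibronectin and vitronectin are adhesive glycoproteins bound by integrins through an arginine-glycine-aspartate motif. Elastic fibres have a core of cross-linked elastin laid on microfibrils of fibrillin 1, and emilin 1 lies where the core meets the microfibrils. Arteries lay down most of their elastin around birth and in early life. Proteoglycan 4, or lubricin, is a mucin-like glycoprotein best known as the lubricant of joints.

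Libraries held 28806840 to 32913813 counts, so that a floor of 3 counts stood at 0.0911 to 0.104 CPM, the counts scaled to the library total, and the lowest count of any of the 9 genes in any library was 106. Together the 9 genes took 0.0976% to 0.135% of the counts of a library. The endothelial marker Cdh5 stood at 2404 ± 41.9, 3180 ± 94.0 and 3048 ± 202 CPM in BPN/3J, 4-week and 22-week BPH/2J (mean ± SD, n = 3), which places the labelled cell type in all groups. Other heart cells left transcripts too, such as Myh11 of smooth muscle at 259 to 287 CPM and Gsn, which fibroblasts express strongly, at 174 to 702 CPM as group means. In bulk RNA, fewer cells of a type and less RNA per cell cannot be told apart. Replicate 1 of 4-week BPH/2J stood apart from the other libraries of its group: a chi-square per gene of 53.5 and 46.4 separated it from replicates 2 and 3, against 6.49 between those. It also held more mitochondrial counts (2.63% against 1.19% and 1.33%) and a larger sum of 8 platelet markers (99.96 CPM against 48.4 and 54.0). The labels do not say whether each replicate is another animal. The p-values therefore reflect library-to-library spread alone, and that spread may be technical.

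In the files' gene table Fn1 (ENSMUSG00000026193) and Prg4 (ENSMUSG00000006014) lie on chromosome 1, Thbs1 (ENSMUSG00000040152) and Fbn1 (ENSMUSG00000027204) on chromosome 2, and Postn (ENSMUSG00000027750) on chromosome 3. Tnc (ENSMUSG00000028364) lies on chromosome 4, Eln (ENSMUSG00000029675) and Emilin1 (ENSMUSG00000029163) on chromosome 5, and Vtn (ENSMUSG00000017344) on chromosome 11. Values are CPM after TMM scaling (trimmed mean of M values), given in the order of replicates 1, 2 and 3. A gene is said to have risen, fallen or differed where the quasi-likelihood test of edgeR, adjusted over all 15277 genes, gave a p below 0.05. Differences are log2 values with their standard error, and intervals cover 95%. The 3 comparisons share libraries: each group enters 2 of them, so their results are not independent.

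Per gene length, as RPKM (CPM over the gene's deposited length in kilobases), Fn1 led the 9 genes with group means of 67.4 to 77.6 RPKM, above 95% to 95.8% of the tested genes. Eln followed at 38.4 to 64.4 RPKM, but its deposited length of 2583 bases is far below the 8098 exonic bases of the later GENCODE M21 annotation. With the later lengths, Eln stood at 12.3, 20.6 and 12.8 RPKM in BPN/3J, 4-week and 22-week BPH/2J and Fn1 at 48.1, 55.4 and 49.5. Eln was then second at 4 weeks alone. Prg4 (21.67), Emilin1 (16.76), Thbs1 (13.66) and Fbn1 (13.59) exceeded it in BPN/3J, and Fbn1 (15.85) and Prg4 (12.95) in 22-week BPH/2J. Fbn1 (13.6 to 17.9 RPKM), Emilin1 (9.99 to 16.8) and Thbs1 (6.43 to 13.7) formed the middle, and Vtn stayed at 3.78 to 5.42. Postn ran from 2.23 to 7.94 RPKM. Tnc and Prg4 had no fixed place. Tnc averaged 0.684, 6.07 and 0.555 RPKM in the 3 groups, and Prg4 21.7, 1.22 and 12.9. In each of the 3 libraries of 4-week BPH/2J the Tnc level per length was 3.01 to 7.08 times that of Prg4, and in each of the 6 libraries of 22 weeks Prg4 was 17.5 to 41.6 times Tnc.

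**Figure D1:**
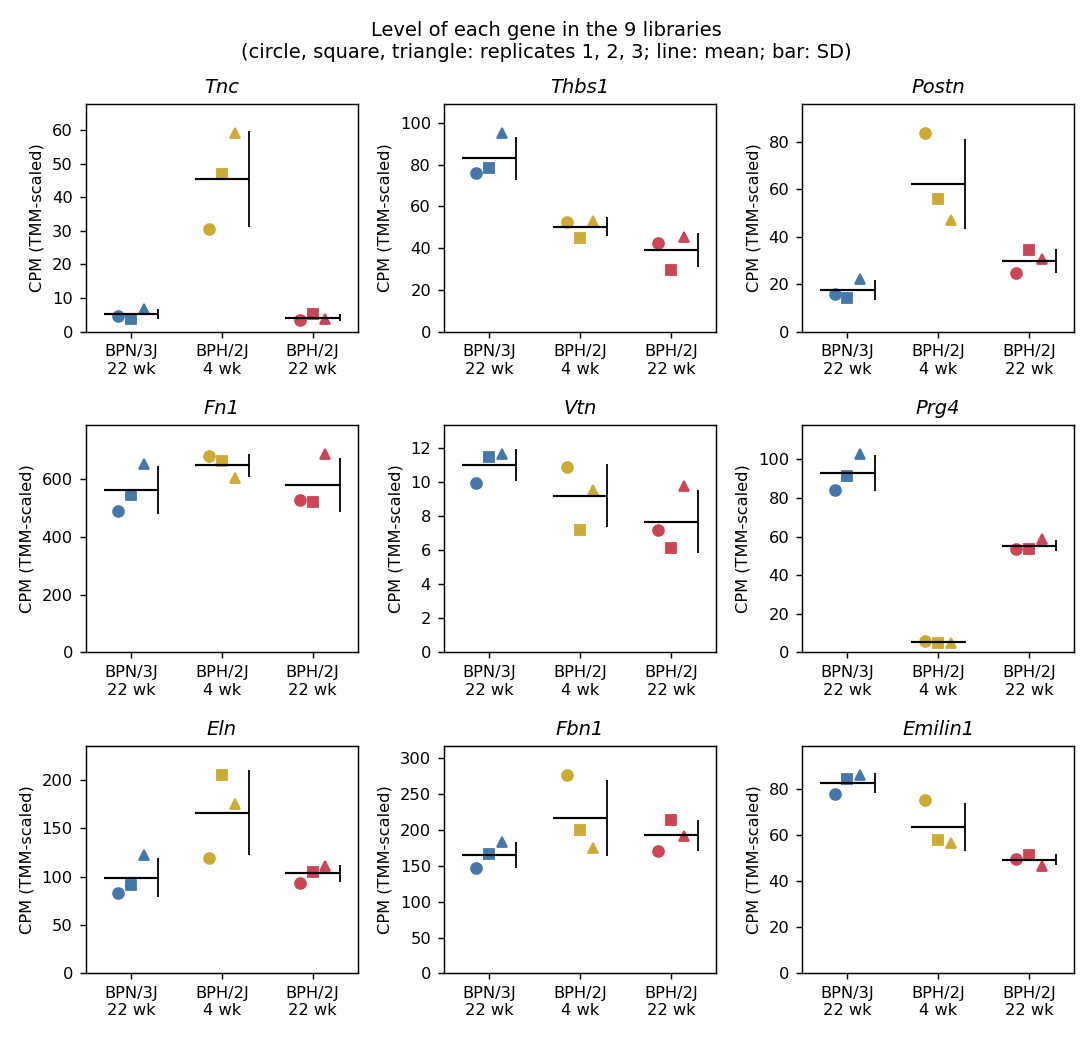
TMM-scaled CPM (vertical axes, linear and starting at 0) of the 9 genes in BPN/3J at 22 weeks (blue), BPH/2J at 4 weeks (yellow) and BPH/2J at 22 weeks (red). Symbols are libraries, horizontal lines group means and vertical bars SD. Tnc is high only in the 4-week libraries (30.7 to 59.1 CPM), Prg4 is low only there (4.76 to 5.80 CPM), and the Fn1 groups overlap.

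The RefSeq promoter table (build GRCm38.p6) matched 5 of the 9 genes. The 250 bases before the start of Tnc and Postn are shown because these matricellular genes were the pair that fell between 4 and 22 weeks. Each has 2 entries, of which the one nearest to a GENCODE start is printed. They come from the reference genome, not from BPH/2J or BPN/3J. Capitals mark TATAAA, found on either strand.
Tnc, chr4:64047016-64047265, minus strand: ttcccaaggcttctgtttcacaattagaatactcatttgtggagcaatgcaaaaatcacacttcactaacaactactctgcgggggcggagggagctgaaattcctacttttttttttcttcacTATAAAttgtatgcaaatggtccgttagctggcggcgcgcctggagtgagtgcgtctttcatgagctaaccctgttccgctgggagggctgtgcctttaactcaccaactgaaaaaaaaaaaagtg
Postn, chr3:54360857-54361106, plus strand: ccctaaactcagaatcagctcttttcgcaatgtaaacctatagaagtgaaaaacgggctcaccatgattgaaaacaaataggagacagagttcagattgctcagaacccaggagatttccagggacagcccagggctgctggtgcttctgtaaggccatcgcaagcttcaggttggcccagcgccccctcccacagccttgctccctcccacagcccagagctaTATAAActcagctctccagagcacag
In Postn the TATAAA match lies 26 to 21 bases before the start and in Tnc 126 to 121 bases before it, and 12.4% of the 32851 windows of the same length in the table hold this motif. The Tnc window also holds a GC box, GGGCGG (32.7% of windows). Neither holds the AP-1 letters TGANTCA (6.75%) nor the TEAD letters GGAATG (12.6%). A match is a description of letters and not a site of binding.

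The comparison of 22-week with 4-week BPH/2J asks what separates young from adult endothelium within the hypertensive line. Tnc, Postn, Eln and Emilin1 fell and Prg4 rose, so 5 of 9 (55.6%) were called, against 41.0% of all tested genes (19.9% higher and 21.1% lower). Tnc and Prg4 were at the far ends of the whole table: Tnc had the 5th largest fall and Prg4 the 10th largest rise of 15277 genes. The median log2 difference of the 9 genes was -0.36, and that of all tested genes 0.01. The 5 called genes were also those whose libraries did not overlap between the ages, which held for 51.2% of all tested genes.

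Tnc, which encodes the hexameric glycoprotein tenascin C, was at 30.7, 46.9 and 59.1 CPM at 4 weeks and at 3.44, 5.37 and 3.70 CPM at 22 weeks. Every 4-week library stood far above every 22-week library, and replicate 1 was the lowest of the younger group. The level fell 10.9-fold, a log2 difference of -3.45 ± 0.28 (edgeR adjusted p = 1.98e-05).
Prg4 moved the opposite way, from 5.80, 5.13 and 4.76 CPM at 4 weeks to 53.7, 53.7 and 58.9 CPM at 22 weeks. The libraries of each age lay close together, with a coefficient of variation of 10.2% and 5.45%. The rise was 10.6-fold, or 3.40 ± 0.10 on the log2 scale (edgeR adjusted p = 7.51e-08).
In the GENCODE M21 annotation the nuclear pore gene Tpr lies on the opposite strand and shares 204 of the 4280 exonic bases of Prg4. The strand setting of the counting is not given in the sources used here. Tpr stood at 225 ± 5.58, 236 ± 7.36 and 225 ± 3.71 CPM in BPN/3J, 4-week and 22-week BPH/2J, a nearly level pattern. The opposite-strand transcript over Tnc, 8030451A03Rik, averaged at most 0.196 CPM, and the one over Fbn1, Gm9913, at most 0.230 CPM.

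Postn, which encodes periostin, a collagen-binding protein of valves and activated fibroblasts, was at 83.7, 56.1 and 47.0 CPM at 4 weeks and 24.6, 34.5 and 30.5 CPM at 22 weeks. The ages did not overlap, and replicate 1 was the highest 4-week library, the reverse of its place for Tnc. Postn fell 2.08-fold (log2 difference -1.06 ± 0.22, edgeR adjusted p = 0.00342), and without replicate 1 of the 4-week group the log2 difference was -0.78.
Elastin, Eln, was at 119, 205 and 175 CPM at 4 weeks and 93.9, 105 and 111 CPM at 22 weeks. Its lowest 4-week library, again replicate 1, lay just above the 22-week range. Eln fell 1.61-fold (log2 difference -0.68 ± 0.19, edgeR adjusted p = 0.0142). The call was lost without replicate 2 of the 4-week group (edgeR adjusted p = 0.0553) and without replicate 1 of the 22-week group (0.0611).
Emilin1, whose protein limits TGF-beta processing at the cell surface, was at 75.5, 58.1 and 56.7 CPM at 4 weeks and 49.7, 51.5 and 46.8 CPM at 22 weeks. The groups were close but did not overlap, with a fall of 1.29-fold (log2 difference -0.36 ± 0.10, edgeR adjusted p = 0.0165). Replicate 1 was again the highest 4-week library, and without it the log2 difference was -0.215. Without replicate 3 of the 22-week group the edgeR adjusted p was 0.067.

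No age difference was called for the other 4 genes. Fn1, encoding fibronectin, was at 679, 661 and 602 CPM at 4 weeks and 528, 522 and 685 CPM at 22 weeks, so that 1 of the older libraries exceeded all the younger ones. Its log2 difference of -0.16 had an interval from -0.44 to 0.12, which leaves out a 1.5-fold change in either direction.
Fbn1, encoding fibrillin 1, spread from 276 in replicate 1 to 200 and 175 CPM at 4 weeks and gave 170, 215 and 192 CPM at 22 weeks (log2 difference -0.17, interval -0.52 to 0.17). The sign of this difference rested on replicate 1 of the 4-week group, since without it the value was 0.04.
Thbs1, encoding thrombospondin 1, was at 52.4, 45.0 and 53.1 against 42.4, 29.6 and 45.2 CPM, with overlap (log2 difference -0.36 ± 0.15, edgeR adjusted p = 0.0722). Without replicate 3 of the 22-week group its edgeR adjusted p was 0.0435.
Vtn, encoding the plasma and matrix protein vitronectin, ranged over 7.20 to 10.9 and 6.11 to 9.73 CPM, with a log2 difference of -0.26 (interval -0.68 to 0.15).

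Marker lists of other cells and states moved over the same ages. All 11 cell cycle genes fell, with summed levels of 712 to 861 CPM at 4 weeks and 180 to 252 CPM at 22 weeks, and BPN/3J at 202 to 212 CPM, so that both 22-week groups were low, as for Tnc. All 10 macrophage and monocyte markers fell as well, from sums of 416 to 794 to sums of 211 to 247 CPM. The 12 fibroblast markers split: the collagen genes Col1a1, Col1a2 and Col3a1 fell, while Dcn, Gsn and Pdgfra rose, and the sums overlapped at 764 to 1113 and 794 to 915 CPM. Replicate 1 of the 4-week group had the highest fibroblast sum of its age (1113 against 764 and 769 CPM), as it had for Postn and Fbn1, and the lowest Eln and Tnc. Endocardial markers had 4 of 8 tested higher and 1 lower, with sums of 291 to 357 CPM at 4 weeks and 427 to 717 at 22 weeks. The BPN/3J sums were 726 to 755 CPM, so the sums had the order of Prg4. That order rested on Bmp6, the most abundant marker, at 378, 55.4 and 195 CPM in BPN/3J, 4-week and 22-week BPH/2J. None of the other endocardial markers in the table had it. Npr3 was at 143, 59.6 and 143 CPM and Plvap at 63.6, 48.2 and 79.0 in the same groups. Between the lines at 22 weeks, however, 1 of the 8 was higher in BPH/2J, 1 lower and 6 not called. Their median log2 difference there was 0.19, and the Prg4 difference -0.74. Of 6 cartilage and tendon markers, from tissues known for Prg4, only 3 were in the table, and these summed to at most 2.77 CPM in any library. Of 8 epicardial and mesothelial markers 4 were in the table, only Wt1 and Krt19 were tested, and both fell. The sum of the list was 95.1 to 116 CPM at 4 weeks and 47.2 to 62.6 at 22 weeks. Nearly all of that sum was Wt1, at 106 and 54.8 CPM. The part of these cells and states in the age differences was not tested.

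**Figure D2:**
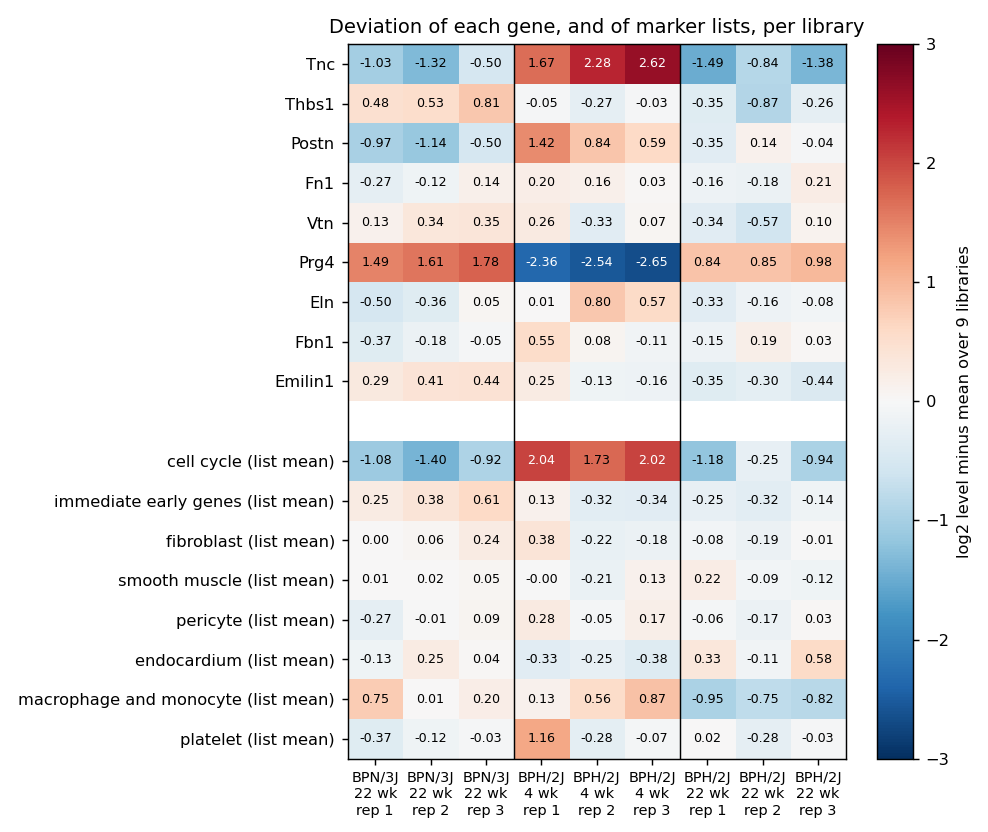
Each row is a gene, or the mean over a marker list, and each column a library, with replicates side by side in each group. Colour and number give the log2 level minus its own mean over the 9 libraries. Tnc runs from -1.49 to 2.62, Prg4 from -2.65 to 1.78, and the cell cycle list is above 0 in the 4-week libraries alone, as is Tnc.

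The comparison of the lines at 22 weeks asks which endothelial transcripts differ between hypertensive and normotensive mice of equal age. Thbs1, Prg4, Emilin1 and Vtn were lower in BPH/2J and Postn was higher, again 5 of 9, against 38.0% of all tested genes (19.8% higher and 18.2% lower). These 5 were also the genes without overlap between the groups, as were 55.7% of all tested genes. The median log2 difference of the 9 was -0.30 and that of all genes 0.02. Thbs1 was the 1 gene of the 9 with a difference of 2-fold or more, against 3 with age.

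Thbs1 was at 75.8, 78.2 and 94.9 CPM in BPN/3J and at 42.4, 29.6 and 45.2 CPM in 22-week BPH/2J. The BPN/3J libraries all stood above those of BPH/2J, with replicate 2 of BPH/2J the lowest of all. The level was 2.12-fold lower in BPH/2J (log2 difference -1.09 ± 0.15, edgeR adjusted p = 0.000311).
Transcripts of the immediate early class, known to be induced quickly by stress and by dissociating tissue, were lower in BPH/2J for 12 of 15 listed genes and higher for 0. In BPN/3J they summed to 9190 to 12091 CPM, at 4 weeks in BPH/2J to 5539 to 8068 and at 22 weeks to 6073 to 6898. Replicate 3 of BPN/3J had the highest sum and the highest Thbs1, and replicate 3 was also highest for both within 22-week BPH/2J. At 4 weeks, by contrast, replicate 3 had the lowest sum (5539 CPM) and the highest Thbs1 of its group (53.1 CPM). There replicate 1 had the highest sum (8068 CPM), with Thbs1 at 52.4 CPM. Platelets also carry thrombospondin 1, and the 8 platelet markers had sums of 46.1 to 49.1 CPM in the normotensive line and 40.9 to 48.1 in BPH/2J at 22 weeks, with 1 called lower. The part of either in the Thbs1 difference was not tested.

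Prg4 was at 84.2, 91.4 and 103 CPM in BPN/3J against the 53.7 to 58.9 CPM given above for 22-week BPH/2J. The groups were well apart, and the level was 1.67-fold lower in BPH/2J (log2 difference -0.74 ± 0.09, edgeR adjusted p = 0.000103).
Emilin1 was at 77.8, 84.3 and 86.1 CPM in BPN/3J and at 46.8 to 51.5 in BPH/2J, again 1.68-fold lower (log2 difference -0.75 ± 0.10, edgeR adjusted p = 0.000336). Both genes kept this call under each alternative setting and without any single library.
Vtn was at 9.92, 11.5 and 11.6 CPM in BPN/3J and at 7.16, 6.11 and 9.73 CPM in BPH/2J. The gap between the groups was small beside their spread, and the call stood at the threshold (log2 difference -0.52 ± 0.19, edgeR adjusted p = 0.0494). It was lost in 9 of 18 alternatives, among them those without replicate 1, 2 or 3 of BPN/3J (edgeR adjusted p = 0.059, 0.12 and 0.132), replicate 1 or 2 of 22-week BPH/2J (0.134 and 0.157) or replicate 3 of 4-week BPH/2J (0.0636). Vtn is a marker of pericytes as well, and 7 of the 9 pericyte markers, of which Vtn is 1, were not called in this comparison. The pericyte sums were 679 to 840 CPM in BPN/3J, 1051 to 1295 at 4 weeks and 959 to 1112 at 22 weeks in BPH/2J. Most of each sum was Rgs5, at 470, 853 and 775 CPM in the same order, which was the other pericyte marker called between the lines and was higher in BPH/2J. Vitronectin is also made by the liver, and of 7 hepatocyte markers 4 were in the table and 2 were tested, both lower in 22-week BPH/2J. Their list summed to 25.1 to 30.6 CPM in BPN/3J and to 4.25 to 10.2 in 22-week BPH/2J, with up to 2 of the 4 at 0 in a library, and Ahsg, a liver plasma protein gene, stood at 26.3 and 7.08 CPM. The part of pericyte or liver transcripts in the Vtn difference was not tested.

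Postn was the gene of the 9 that was higher in 22-week BPH/2J, at 24.6, 34.5 and 30.5 CPM against 16.0, 14.2 and 22.2 CPM in BPN/3J. The lowest BPH/2J library lay just above the highest BPN/3J library. The level was 1.71-fold higher (log2 difference 0.78 ± 0.23, edgeR adjusted p = 0.0212). Leaving out replicate 1 or 2 of BPN/3J gave an edgeR adjusted p of 0.0668 or 0.0785, and leaving out replicate 2 or 3 of 22-week BPH/2J gave 0.0691 or 0.0539.
Fibroblast markers split: 2 of 12 were higher in BPH/2J (Col3a1 and Pi16) and 4 lower (Gsn, Dcn, Ddr2 and Tcf21). Their sums were 1307 to 1400 CPM in BPN/3J and 794 to 915 in BPH/2J. Gsn and Dcn, the most abundant of them, stood at 702 and 347 CPM in BPN/3J and at 290 and 219 in BPH/2J. Col3a1 had the group order of Postn, at 35.2, 220 and 80.7 CPM in BPN/3J, 4-week and 22-week BPH/2J. So had Col1a1, which was not called between the lines, but no other listed fibroblast marker. Cardiomyocyte markers were lower in BPH/2J for 8 of 12, with sums of 855 to 1079 and 526 to 642 CPM. Macrophage markers were lower for 9 of 10. Both tested epicardial and mesothelial markers, Wt1 and Krt19, were lower, as was Prg4. Their list sums were 120 to 131 CPM in BPN/3J and 47.2 to 62.6 in BPH/2J. Nearly all of each sum was 1 gene, Wt1, at 121 and 54.8 CPM, and Krt19 stood at 5.92 and 0.763. Upk1b and Lrrn4, near the floor and not tested, went the other way (0.0566 and 0.204 CPM, 0.0225 and 0.0752 CPM). Endothelial markers were higher in BPH/2J for 6 of 8 and lower for 1, with sums of 9540 to 10041 and 12238 to 12478 CPM. The part of these cells in the differences between the lines was not tested.

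Fn1, Eln, Fbn1 and Tnc were not called between the lines at 22 weeks. Fn1 was at 489, 545 and 652 CPM in BPN/3J and 522 to 685 in BPH/2J (log2 difference 0.04, interval -0.24 to 0.32). Eln was at 83.5, 91.6 and 122 CPM in BPN/3J, around the 93.9 to 111 CPM of 22-week BPH/2J (log2 difference 0.06, interval -0.35 to 0.48).
Fbn1 was at 146, 166 and 182 CPM in BPN/3J, with overlap (log2 difference 0.22, interval -0.12 to 0.57). Tnc was at 4.72, 3.86 and 6.84 CPM in BPN/3J and 3.44 to 5.37 in BPH/2J, so both 22-week groups were low (log2 difference -0.30, interval -0.96 to 0.36). The Tnc interval is wide and holds 0, so a difference of a size within it remains possible in either direction.

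The remaining pair, 4-week BPH/2J against 22-week BPN/3J, differs in line and in age, which cannot be told apart here. Tnc, Postn and Eln were higher in 4-week BPH/2J and Prg4, Thbs1 and Emilin1 lower, 6 of 9 (66.7%) against 53.1% of all tested genes (27.8% higher and 25.3% lower). Libraries of 5 genes did not overlap, as for 59.2% of all genes. Tnc was 8.87-fold higher (log2 difference 3.15 ± 0.27, edgeR adjusted p = 6.6e-06) and Prg4 17.7-fold lower (-4.15 ± 0.10, edgeR adjusted p = 9.25e-10). Postn was higher by 1.83 ± 0.23 and Eln by 0.75 ± 0.19 on the log2 scale, although 1 BPN/3J library reached 122 CPM and exceeded the lowest 4-week library for Eln. Thbs1 was lower by a log2 difference of -0.73 ± 0.15 and Emilin1 by -0.38 ± 0.10. Fbn1 missed the threshold (log2 difference 0.40 ± 0.16, edgeR adjusted p = 0.0515) and had an edgeR adjusted p of 0.0153 without replicate 3 of 4-week BPH/2J. Fn1 and Vtn were not called, with log2 differences of 0.20 and -0.26.

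**Figure D3:**
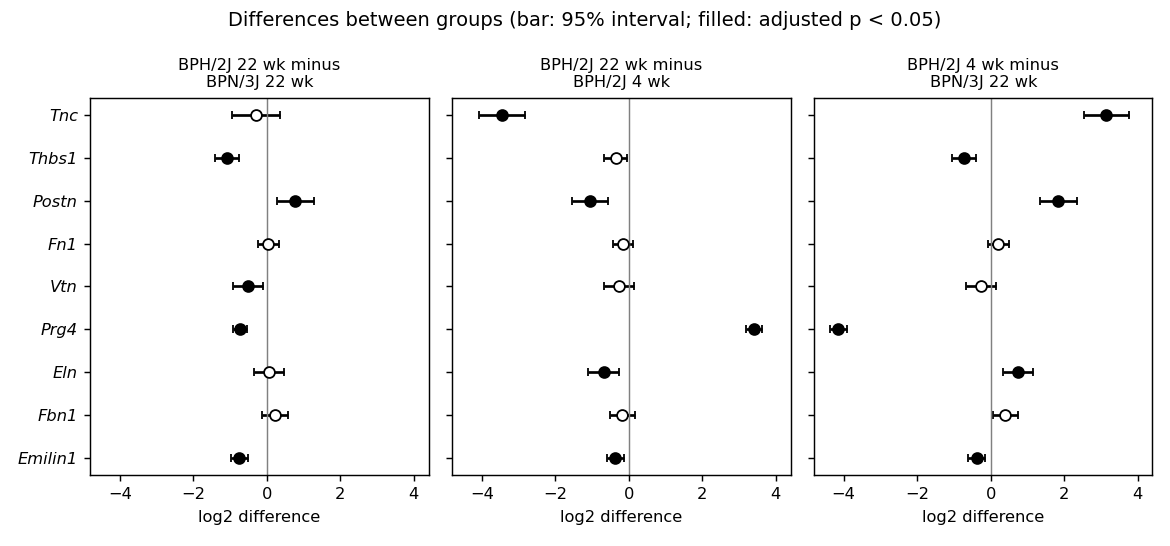
Log2 differences of the 9 genes (horizontal axes) in the 3 comparisons, with bars for 95% intervals and filled points for edgeR adjusted p below 0.05. Tnc and Prg4 lie beyond 3 in opposite directions in both comparisons that hold the 4-week group, and within 1 of 0 between the lines at 22 weeks.

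The groups ranked as follows for each gene. For Prg4 the order was BPN/3J, 22-week and 4-week BPH/2J, with each neighbouring pair called. Postn ran from 4-week BPH/2J through 22-week BPH/2J to BPN/3J, with both neighbouring pairs called. Emilin1 ran from BPN/3J through 4-week to 22-week BPH/2J, with both pairs called. Thbs1 had that order too, but the ages of BPH/2J were not called apart. Tnc and Eln were highest in 4-week BPH/2J, and the 22-week groups were not called apart. For Fn1 and Fbn1 no pair of groups was called, and for Vtn only the lines at 22 weeks.

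The authors' deposited table gives the same direction and the same call at a false discovery rate of 0.05 for all but 2 of these 27 results. The authors' deposited table also calls Thbs1 between the ages (false discovery rate 0.0341) and Fbn1 between 4-week BPH/2J and BPN/3J (0.0146).

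The genes whose pattern over the 9 libraries lay nearest to each gene were found by the root mean square difference of log2 levels, each centred on its own mean, among 10516 genes. For Tnc these were Ticrr, Uhrf1 and Adamts17, at 0.22, 0.32 and 0.33, where Tnc itself varied by 1.57. Ticrr and Uhrf1 act in DNA replication and its methylation, and Uhrf1 stood at 8.29, 69.7 and 9.41 CPM in BPN/3J, 4-week and 22-week BPH/2J. For Prg4 the nearest was Fmo2, a flavin monooxygenase, at 0.23, with 920, 45.7 and 549 CPM in the same order, and then Penk and Aldh1l1 at 0.43 and 0.45. Among the nearest to Thbs1 were Nr4a2, an immediate early transcription factor (0.12), and Nfkbiz (0.16). Postn was nearest to Rgs16 and to the collagen genes Col5a3 and Col1a1 (0.17 to 0.21). Eln was nearest to Tead1 (0.10), a transcription factor. Fn1 was nearest to Itgb3 (0.09), an integrin chain, and Fbn1 to Plk2 (0.09), but Fn1 and Fbn1 themselves varied by only 0.18 and 0.25, so these distances are large beside the pattern they match. Emilin1 was nearest to Srsf7 (0.10) and Vtn to Ezr (0.14), where Emilin1 and Vtn varied by 0.33 and 0.31. These 9 libraries form 3 groups and share their depth and preparation, so the distances describe patterns only.

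Other matricellular genes did not share a direction with Tnc and Postn. Over all tested genes 41.0% were called with age, 38.0% between the lines at 22 weeks and 53.1% between 4-week BPH/2J and BPN/3J. Of 20 listed, 19 were tested, and with age in BPH/2J 8 rose and 2 fell, with a median log2 difference of 0.49 (0.01 over all genes). Sparc, a collagen-binding glycoprotein gene, fell from 6217 ± 245 to 3136 ± 419 CPM, and Tgfbi, a relative of Postn, fell by 0.67 on the log2 scale, with overlap between the ages (edgeR adjusted p = 0.0387). Nov (Ccn3) rose from 32.9 ± 2.14 to 70.0 ± 5.34 CPM, Tnxb, the tenascin X gene, from 77.8 ± 4.62 to 156 ± 13.4, and Smoc1 from 12.6 ± 0.97 to 27.8 ± 15.2. Within the tenascin family Tnc and Tnxb thus moved in opposite directions. Without replicate 3 of 4-week BPH/2J, 5 rose and 1 fell. The number that fell was also 1 with limma-voom, in the fit of 2 groups, and without replicate 2 of 4-week BPH/2J, replicate 1 of 22-week BPH/2J or any single BPN/3J library. Between the lines at 22 weeks 3 were higher in BPH/2J (Sparc 1.94-fold, Igfbp7 1.47-fold, Nov 1.27-fold) and 3 lower, among them Tgfbi (2.02-fold) and Cyr61 (1.5-fold, with overlap), and the median was -0.14. Of 4-week BPH/2J against BPN/3J, 2 were higher, Sparc by 3.84-fold, and 9 lower, with a median of -0.54.

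Partners of elastic fibres and microfibrils split in the same comparisons. Of 26 listed, 25 were tested, and with age 4 rose and 7 fell (median log2 difference 0.04). Of all tested genes 19.9% rose and 21.1% fell with age. Loxl2, which cross-links collagen and elastin, fell from 50.9 ± 4.37 to 22.5 ± 0.33 CPM. Adamtsl2, which binds fibrillin 1, fell from 9.39 ± 0.76 to 2.72 ± 1.09 CPM, and Mfap4, a microfibril protein, from 9.32 ± 3.43 to 4.11 ± 1.68. Fbn2, the fibrillin best known from embryos, was chosen after its values were seen, and fell from 2.54 to 0.236 CPM, whereas Fbn1 was not called. Ltbp1, which tethers latent TGF-beta to microfibrils, rose 1.59-fold, and Mmrn2, the endothelial relative of Emilin1, rose 1.24-fold while Emilin1 fell. Fbln5, needed for elastic fibre assembly, rose 1.2-fold and Eln fell. Between the lines at 22 weeks 8 were higher in BPH/2J and 1 lower (median 0.08), against 19.8% and 18.2% of all tested genes. Mfap3, Ltbp1 and Efemp2 were 1.63-fold, 1.49-fold and 1.42-fold higher and Loxl2 2.23-fold lower. Of 4-week BPH/2J against BPN/3J, 11 were higher and 3 lower (median 0.08), with Mfap4 12.6-fold higher. In that pair 27.8% of all tested genes were higher and 25.3% lower.

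**Figure D4:**
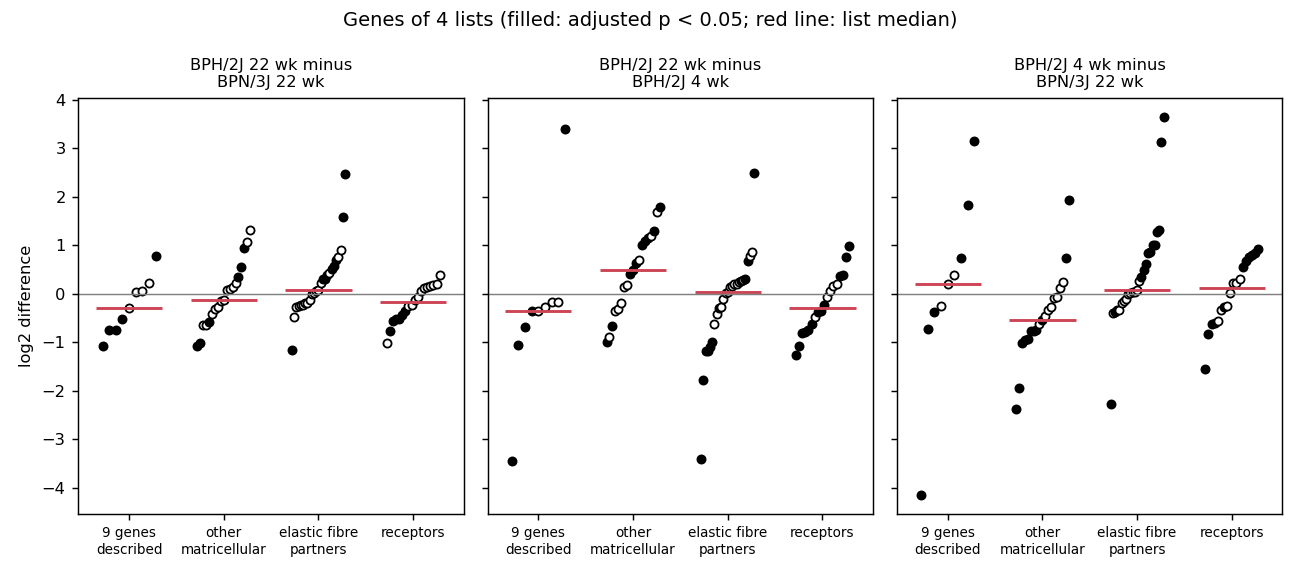
Log2 differences (vertical axis) of the 9 genes and of 3 related lists, with one point per tested gene, filled where the edgeR adjusted p was below 0.05, and a red line at the list median. Tnc and Prg4 are the outermost points of the 9 genes in the middle and right panels. Receptors form the last column of each panel.

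Receptors of these proteins were measured as 18 of 19 listed genes. With age 4 rose and 9 fell (median -0.30), against 19.9% and 21.1% of all tested genes. Itga5, the main fibronectin receptor chain, fell from 264 ± 19.2 to 151 ± 19.0 CPM while Fn1 was not called. Cd44, a hyaluronan receptor that also binds Prg4, fell from 49.7 ± 2.18 to 20.6 ± 4.18 CPM, and Plaur, the urokinase receptor that binds vitronectin, fell 2.12-fold. The thrombospondin receptors rose: Cd36 from 4129 ± 128 to 6946 ± 562 CPM and Cd47 1.32-fold. Itgb5, which pairs with the alpha v chain to bind vitronectin, rose 1.98-fold. Between the lines at 22 weeks 0 were higher and 6 lower in BPH/2J (median -0.17), against 19.8% and 18.2% of all tested genes. Among the lower were Plaur 1.70-fold, Itgb5 1.48-fold and Lrp1 1.43-fold. Upper-quartile scaling, library totals alone, DESeq2, limma-voom and the fit without replicate 1 of 4-week BPH/2J called 2 higher and 6 lower. No low-count filter and the 2-group fit called 1 higher and 6 lower. Leaving out replicate 1 of BPN/3J gave 1 higher and 7 lower. Of 4-week BPH/2J against BPN/3J, 6 were higher and 5 lower (median 0.12), against 27.8% and 25.3% of all tested genes. Itga9, the alpha chain that binds Tnc, was 1.79-fold higher and Itgb5 2.92-fold lower.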

How the data were processed

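Counts per gene, one column per library, were used as deposited by the authors, per the file headers. The submitters' processing notes name CASAVA 1.8.2, TopHat2 2.0.13, Bowtie2, featureCounts, edgeR and the build mm9, without roles. The annotation used is not given in the sources used here. Deposited CPM values equal counts over column totals. The deposited log2 fold changes and p-values come from the authors' own comparisons and are quoted as such, and the deposited gene lengths (an other value, in bases) gave RPKM. Genes were filtered with filterByExpr and scaled by TMM, and all 9 libraries entered 1 quasi-likelihood fit in edgeR 4.0.16 with group as the only term (R 4.3.3). P-values were adjusted by Benjamini-Hochberg over 15277 genes, with a threshold of 0.05. The standard error is the absolute log2 difference over the square root of F. Patterns used log2(CPM + 0.1). The code was tested on simulated data.

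Alternatives were other scalings, no filter, DESeq2 1.42.0, limma-voom (limma 3.58.1), the other quasi-likelihood setting, 2-group fits, a replicate block and leaving out each library. The later gene lengths were an alternative chosen after seeing the data. The genes, lists and tests were chosen with earlier results of these data known. Named genes were the 9, up to 3 called genes per list, direction and comparison with at least 5 CPM, the most abundant markers and the nearest patterns. Other markers of the lists, and Fbn2, were named after their values were seen. Some genes that this rule names are not reported here. Reads carry no molecular identifiers, so floors cover counting error only.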

Additional observations from a re-analysis of the deposited data

How the results depend on the processing

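Over 18 alternatives for each of 27 gene results, 461 of 486 values kept direction and call, 16 lost the call, 5 gained it and 4 changed sign. The sign changes were in uncalled differences and came from leaving out 1 library: Fn1 between the lines at 22 weeks (-0.049 without replicate 1 of BPN/3J, -0.093 without replicate 3 of 22-week BPH/2J, range -0.093 to 0.16), Eln there (-0.047 without replicate 1 of BPN/3J, range -0.047 to 0.24) and Fbn1 between the ages (0.041 without replicate 1 of 4-week BPH/2J, range -0.30 to 0.041). The cause was not tested. Between the lines, 3 to 5 of the 9 genes were called when 1 library was left out (3 without replicate 1 or 2 of BPN/3J or replicate 2 of 22-week BPH/2J), and between the ages 6 to 12 of the other matricellular genes. Scaling by library totals alone called 3850 higher and 2305 lower genes between the lines, against 3024 and 2786 with TMM. Vtn then had an edgeR adjusted p of 0.0813. No low-count filter and DESeq2 called Fbn1 between 4-week BPH/2J and BPN/3J (adjusted p = 0.046 and 0.0343). Residuals of libraries with equal replicate numbers correlated at -0.166 to 0.0815, and those with unequal numbers at -0.124 to 0.141. No pairing by number is visible in these values, but with 3 libraries a group a weak one could be missed. With the replicate number as a block, 5, 6 and 6 of the 9 genes were called between the lines, between the ages and between 4-week BPH/2J and BPN/3J, and Thbs1 gained the call between the ages (edgeR adjusted p = 0.0203). The lowest count of the 9 genes was 106, for Tnc in replicate 1 of 22-week BPH/2J, and Vtn had counts of 190 to 333. The part of counting error in the results was not tested. With 3 libraries a group, intervals reached 0.66 either side for Tnc.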

Other observations

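Of 17 genes of TGF-beta and YAP signalling, listed because both act upstream of matrix genes, 3 rose and 9 fell with age in BPH/2J. Their median log2 difference was -0.19 (0.01 over all genes). Of all tested genes 19.9% rose and 21.1% fell. Tgfb2, a TGF-beta ligand, rose from 5.86 ± 2.78 to 16.4 ± 3.87 CPM (mean ± SD, n = 3), and Ankrd1, a target of YAP, from 7.90 ± 3.74 to 14.2 ± 1.92. The transcription factor genes Tead1, Srf and Mkl1 fell 1.62-fold, 1.40-fold and 1.38-fold, with Tead1 at 41.1 ± 11.2 CPM at 4 weeks and 25.4 ± 1.97 at 22 weeks. Between the lines at 22 weeks 4 were higher and 4 lower in BPH/2J, against 19.8% and 18.2% of all tested genes. Tgfb2 and Ankrd1 were 2.41-fold and 1.93-fold higher there, while Amotl2, a target of YAP, was 2.03-fold lower at 221 ± 8.32 against 449 ± 114 CPM.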
